A study of Mus musculus with 4 samples.

Results

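The GDNF family ligands and receptors studied here are 8 genes: the ligand genes Gdnf, Nrtn and Artn, the co-receptor genes Gfra1, Gfra2, Gfra3 and Gfra4, and the receptor kinase gene Ret. Pspn, the gene of a further ligand, persephin, is also on the array and is listed below with RET signalling. They were taken by gene name from the scanner files, which gave 11 probes of 41174, and 8 of 27729 gene names on the array. The samples were cultured mouse spermatogonial stem cells, the germ line stem cells of the testis, from C57/BL6 x DBA/2 F1 mice at day 5. The treated cells, labelled -F+S, were kept for 12 h without FGF2 and with SU5402, an inhibitor of FGF receptor kinases. Control cells stayed in the usual medium, which is serum free and holds GDNF at 40 ng/ml and FGF2 at 5 ng/ml, and no label records a removal of GDNF from the treated medium. Each of 4 two-colour arrays paired 1 -F+S sample (Cy3, green) with 1 control sample (Cy5, red), dyes were never swapped, and a gene-specific dye effect and the treatment cannot be told apart. The design text calls the samples biological replicates and does not say which animals or cultures they came from, so the p-values measure the spread between these 4 arrays. The labels give no dose of SU5402.

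GDNF family ligands are secreted dimers that bind a GFRα co-receptor held at the cell surface by a lipid anchor, and the pair then activates the tyrosine kinase RET. GDNF prefers GFRα1, neurturin GFRα2, artemin GFRα3 and persephin GFRα4. In the testis, GDNF from Sertoli and peritubular cells keeps GFRα1-positive and RET-positive spermatogonia self-renewing, and it is a standard component of the medium for these cells.

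The probes are 60 bases long, and coordinates are given in mm9 as in the files. Of the 11 probes, 3 span more genome than their own length and so cross at least 1 intron. The sequences below belong to Nrtn, the gene with the largest fall in the ratios reported here, and to the intron-crossing probes of Gfra1 and Gfra4. These 3 lie in the coding parts of their transcripts, as known for these genes, and no base is in capitals because no part of a probe was compared. The Nrtn probe reads the minus strand at chr17:56890885-56890944, the Gfra1 probe the minus strand at chr19:58313006-58313772, and the Gfra4 probe the minus strand at chr2:130866159-130866758.
Nrtn A_52_P463968: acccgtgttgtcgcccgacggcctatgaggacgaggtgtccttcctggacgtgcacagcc
Gfra1 A_52_P311022: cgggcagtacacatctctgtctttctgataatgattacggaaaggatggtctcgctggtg
Gfra4 A_52_P409839: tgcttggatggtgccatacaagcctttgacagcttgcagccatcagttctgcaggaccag

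Between 26613 and 28496 probes were well above background in -F+S samples and between 25533 and 27891 in control samples. A probe entered the test if 3 or more of the 4 -F+S samples, or 3 or more of the 4 control samples, had it well above background, which left 27730 probes. The log2 ratio of -F+S over control was tested against 0 with limma, with Benjamini-Hochberg adjustment over these probes, and a probe was called at an adjusted p under 0.05. By this rule 66.4% of all tested probes were called, 37.3% higher and 29.1% lower. Of those called, 56.2% were higher, against 42.4% with the scanner software's own LogRatio, which moved the median over all tested probes by -0.15. Across probes, which are not independent replicates, the ratios of different arrays correlated with a Pearson r between 0.907 and 0.948.

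Of the 11 GDNF family probes, 9 were tested, covering 6 of the 8 genes. In -F+S samples Gdnf was higher. Nrtn, Gfra4, Ret and 1 of 2 Gfra1 probes were lower, while the other Gfra1 probe and the probe of Gfra3 did not pass the threshold. By probe this is 1 higher, 6 lower and 2 not called, beside the background of 37.3% higher and 29.1% lower. The levels of -F+S and control samples did not overlap for the 7 called probes, a pattern that 25.2% (all -F+S samples lower) and 33.7% (all -F+S samples higher) of all tested probes showed. Artn and Gfra2 stayed near background and were not tested. Levels are log2 signals after loess and scaling between arrays, and they are compared within a probe, not between probes.

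**Figure D1:**
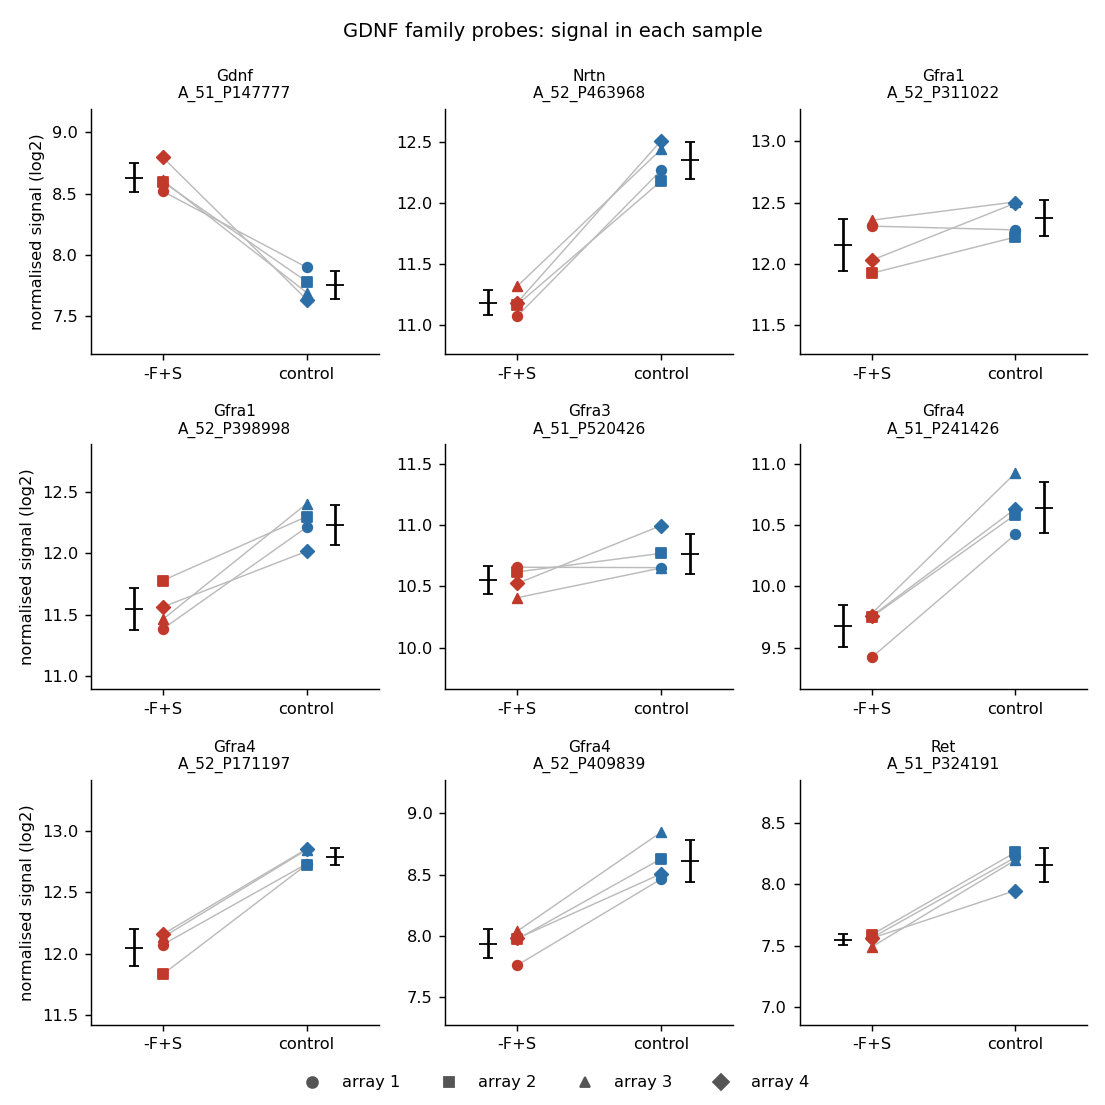
Normalised log2 signal (vertical axis, each panel spanning the same range of log2 units) of the 9 tested GDNF family probes in the 4 -F+S samples (red) and the 4 control samples (blue); grey lines join samples of 1 array, and black bars give mean ± SD. The -F+S points lie above control for Gdnf and below it for Nrtn, Ret, all 3 Gfra4 probes and Gfra1 A_52_P398998, and they overlap control for Gfra1 A_52_P311022 and Gfra3.

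Gdnf encodes the ligand of GFRα1. Its probe reads chromosome 15 from 7786968 to 7787027 on the plus strand and starts at base 2901 of transcript NM_010275. Its log2 signal was 8.52, 8.60, 8.61 and 8.80 in -F+S samples, against 7.90, 7.78, 7.69 and 7.63 in control samples. All -F+S samples lay above all control samples. The log2 ratio was 0.88 (SE 0.094, n = 4), a 1.84-fold rise (limma adjusted p = 3.44e-05), and 12.8% of tested probes had a higher ratio. Transcript of the cells was measured here, not the GDNF protein added to the medium.

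Nrtn encodes neurturin, the ligand preferred by GFRα2, and had the largest fall of the family in the ratios reported here. Its log2 signal was 11.07, 11.17, 11.32 and 11.18 in -F+S samples, against 12.27, 12.18, 12.44 and 12.51 in control samples. The groups did not overlap. The log2 ratio was -1.16 (SE 0.077, n = 4), 2.24-fold lower (limma adjusted p = 1.49e-06), and 0.660% of tested probes had a lower ratio. The probe is rich in G and C (65%), and with the linear trend on probe base composition removed from each array the ratio was -0.74, still called. Gfra4 A_51_P241426 then had a larger fall than Nrtn, at -0.80.

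Artn encodes artemin, the ligand preferred by GFRα3. Its probe, on the minus strand of chromosome 4 from 117599395 to 117599454, was well above background in 2 of the 4 -F+S samples and in 0 of the 4 control samples. Its log2 signal averaged 7.04 ± 0.090 in -F+S samples and 6.82 ± 0.079 in control samples (SD, n = 4 each). The control side has only a bound, which puts the -F+S mean at least 1.16-fold above it, but the -F+S samples of arrays 1 and 3 were not well above background either, so no change of Artn is called. That bound compares the -F+S mean with the higher, on each array, of the probe's own control signal and the lowest control signal marked well above background.

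Ret encodes the receptor kinase shared by all of these ligands. Its probe lies on the minus strand of chromosome 6 from 118103903 to 118103962, starts at base 3867 of NM_009050 and is also listed for the other RefSeq transcript of Ret in the files, so it does not separate them. Its log2 signal was 7.56, 7.59, 7.49 and 7.56 in -F+S samples, against 8.22, 8.26, 8.20 and 7.95 in control samples. The groups did not overlap, and the control sample of array 4 was the lowest of its group. The log2 ratio was -0.61 (SE 0.080, n = 4), 1.52-fold lower (limma adjusted p = 0.000129). Leaving out array 4 gave -0.68, still called.

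The Ret probe is printed 10 times on each array, which shows how well a single hybridisation measures it. Over these spots the log2 ratio ranged between -0.76 and -0.48 on array 1, between -0.78 and -0.57 on array 2, between -0.82 and -0.60 on array 3 and between -0.47 and -0.33 on array 4. Every spot was below 0, and the spots of array 4 lay above all spots of the other arrays. The SD between spots was between 0.052 and 0.082 within an array, against 0.15 between the means of the 4 arrays. The size of the fall depended on the processing: with the scanner LogRatio it was -1.13, which is -1.02 relative to the median of all tested probes, against -0.65 relative to that median in the values above. With a background offset of 0 instead of 50, the Ret ratio was -0.79, which is -0.81 relative to that median.

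**Figure D2:**
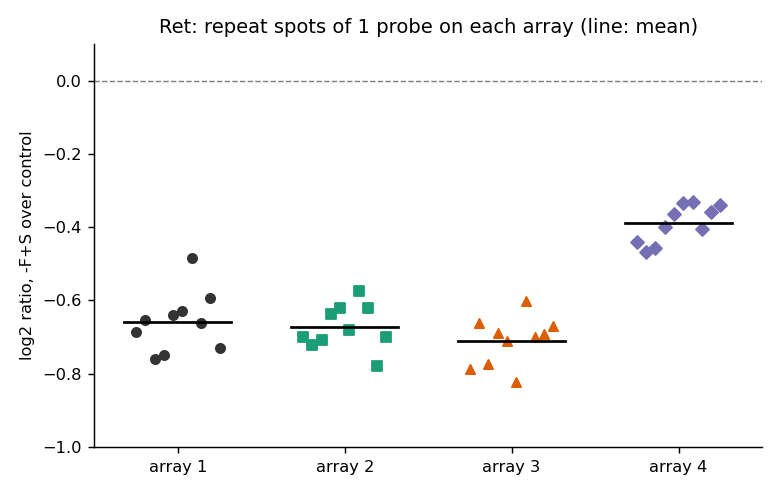
Log2 ratio of -F+S over control (vertical axis) for the 10 repeat spots of the Ret probe on each of the 4 arrays, with the mean as a line and 0 dashed. All spots lie below 0, with array means between -0.71 and -0.39.

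Gfra1 encodes the co-receptor for GDNF, and 1 of its 2 probes passed the threshold. The probe A_52_P398998 starts at base 2742 of NM_010279 and lies on the minus strand of chromosome 19 from 58311604 to 58311663. Its log2 signal was 11.38, 11.78, 11.46 and 11.56 in -F+S samples, against 12.21, 12.30, 12.41 and 12.02 in control samples, with no overlap. Its log2 ratio was -0.69 (SE 0.096, n = 4), 1.61-fold lower (limma adjusted p = 0.000193).

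The other Gfra1 probe, A_52_P311022, starts at base 1340 of the same transcript and is the intron-crossing sequence shown above. Its log2 signal was 12.31, 11.92, 12.36 and 12.03 in -F+S samples, against 12.28, 12.22, 12.51 and 12.50 in control samples, and the groups overlapped. Its log2 ratio was -0.22 (SE 0.091, 95% interval -0.43 to -0.014, n = 4) and did not pass the threshold (limma adjusted p = 0.0572). Within arrays, the ratio of A_52_P311022 minus that of A_52_P398998 averaged 0.47 (SD 0.43) and ranged from -0.012 to 0.86, positive on 3 of 4 arrays. An exact sign-flip permutation test over 4 arrays cannot reach 0.05 at any size of difference, so no call is made on this difference between the 2 Gfra1 probes. The difference was close to its own spread between arrays.

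Gfra2 encodes the co-receptor for neurturin. Its probe, on the plus strand of chromosome 14 from 71377110 to 71378233 with an intron inside, was well above background in 0 of the 4 -F+S samples and 0 of the 4 control samples. No fold is given for Gfra2.

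Gfra3 encodes the co-receptor for artemin, and its probe lies on the minus strand of chromosome 18 from 34849561 to 34849620. Its log2 signal was 10.66, 10.62, 10.41 and 10.52 in -F+S samples, against 10.65, 10.77, 10.65 and 11.00 in control samples. The groups overlapped. The log2 ratio was -0.22 (SE 0.089, 95% interval -0.42 to -0.015, n = 4), just short of the threshold (limma adjusted p = 0.056).

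Gfra4 encodes the co-receptor for persephin, and all 3 of its probes were lower. The probe A_51_P241426, at 130865984 to 130866043 on the minus strand of chromosome 2, had log2 signals of 9.42, 9.75, 9.78 and 9.76 in -F+S samples, against 10.43, 10.59, 10.93 and 10.63 in control samples. Its log2 ratio was -0.97 (SE 0.079, n = 4), 1.96-fold lower (limma adjusted p = 5.74e-06). The groups did not overlap, and 1.58% of tested probes had a lower ratio.

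The remaining Gfra4 probes were lower by smaller amounts. A_52_P171197, at 130865548 to 130865607 and annotated from a brain cDNA, had log2 signals of 12.07, 11.83, 12.13 and 12.16 in -F+S samples, against 12.73, 12.73, 12.85 and 12.85 in control samples. Its log2 ratio was -0.74 (SE 0.074, n = 4), 1.67-fold lower (limma adjusted p = 2.23e-05). The intron-crossing probe A_52_P409839, whose sequence is shown above, had log2 signals of 7.76, 7.97, 8.04 and 7.98 in -F+S samples, against 8.46, 8.63, 8.85 and 8.51 in control samples. Its log2 ratio was -0.67 (SE 0.075, n = 4), 1.60-fold lower (limma adjusted p = 4.68e-05). With a background offset of 0 the ratio was -0.83, and with the scanner LogRatio -1.10.

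The fall differed in size between the 3 Gfra4 probes, and these differences are given without a call, because the exact sign-flip test over 4 arrays cannot reach 0.05. The ratio of A_51_P241426 minus that of A_52_P409839 was -0.29 (SD 0.077), negative on 4 of 4 arrays. A_51_P241426 minus A_52_P171197 was -0.23 (SD 0.22). A_52_P171197 minus A_52_P409839 was -0.068 (SD 0.16). The order of these differences depends on the processing: with the scanner LogRatio they were -0.16, -0.33 and 0.17.

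**Figure D3:**
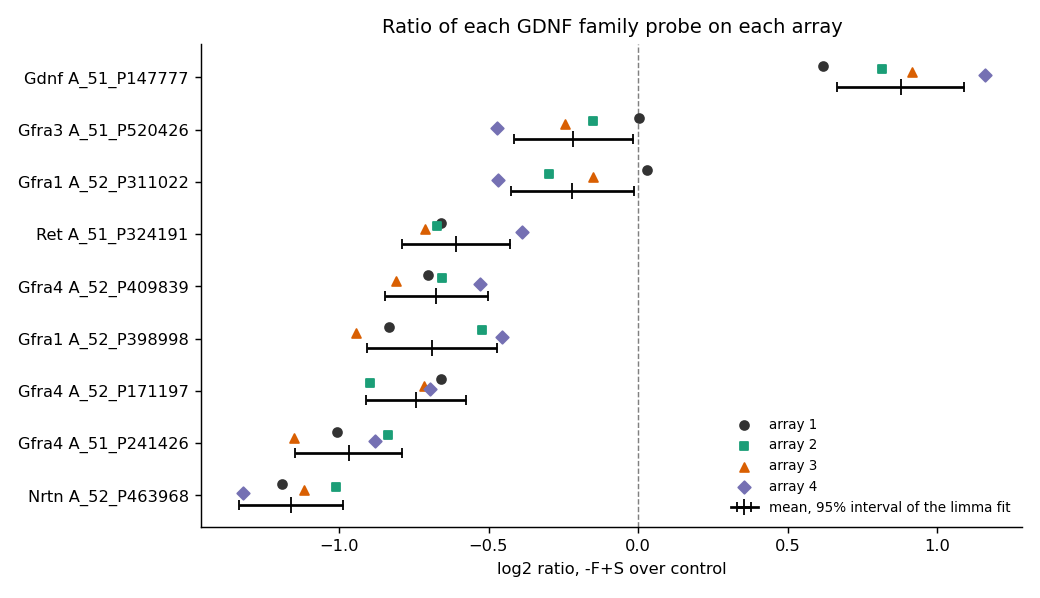
Log2 ratio of -F+S over control (horizontal axis) of the 9 tested GDNF family probes on each of the 4 arrays (coloured points), with the mean and its 95% interval from the limma fit in black and 0 dashed. Gdnf lies right of 0 on all arrays, Nrtn, the 3 Gfra4 probes, Ret and Gfra1 A_52_P398998 lie left of 0 on all arrays, and Gfra3 and Gfra1 A_52_P311022 have 1 array just above 0.

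These falls and the rise of Gdnf came with changes in the markers of the cells a testis culture can hold, and in such bulk samples fewer cells of a type and less RNA per cell cannot be told apart. List values use the brightest tested probe of each gene, with adjustment over 18454 genes, of which 68.4% were called (37.5% higher and 30.9% lower) and whose median log2 ratio was 0.023. Of 13 germ cell markers tested, 0 rose and 7 fell, and the median was -0.24 (-0.45 with median centring in place of loess and -0.37 with the scanner LogRatio). Dnd1, which protects germ cell transcripts, was at -0.86 (SE 0.076, limma adjusted p = 9.03e-06), and Uchl1, a ubiquitin hydrolase of spermatogonia, at -0.66 (SE 0.079). The summed linear signal of the germ cell markers was between 371176 and 423732 in -F+S samples, against between 511359 and 550208 in control samples. Every germ cell marker tested was well above background in some sample, which the filter requires of any tested probe. Nrtn and Gfra4 A_51_P241426 had lower ratios than all 13 germ cell markers. For each of Gfra4 A_52_P171197, Gfra4 A_52_P409839 and Gfra1 A_52_P398998, 1 marker had a lower ratio, and 2 had a lower ratio than Ret. For Gfra3 and Gfra1 A_52_P311022, 7 markers had a lower ratio. These positions are given for the loess ratios only, and the ratios of family probes and of markers moved with the processing. The part of the germ cell markers in these falls was not tested.

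Markers of Sertoli and of Leydig and peritubular cells, cell types that include the known testis sources of GDNF, were higher beside Gdnf. Of 12 Sertoli markers, 11 rose and 0 fell, and the median log2 ratio was 2.09. With only probes well above background in both channels on all arrays, 9 Sertoli markers were called higher. The dimmest in control samples were Fshr and Amh, at mean log2 signals of 7.08 and 7.33. Cldn11, a tight junction protein, was at 3.42 (SE 0.077) and Cst12, a cystatin of Sertoli cells, at 3.17 (SE 0.071). The summed signal of the Sertoli markers was between 492484 and 522933 in -F+S samples, against between 113439 and 120962 in control samples. Such linear sums mostly follow their brightest probes, here Clu, at a mean log2 signal of 18.23 in -F+S and 16.33 in control samples. Of 9 Leydig and peritubular markers tested, 8 rose and 1 fell, the median was 1.68, and summed signals were between 361867 and 406751 in -F+S samples, against between 98382 and 108511 in control samples. They included Hsd3b1, a steroid-synthesis enzyme (3.16), and Myh11, smooth muscle myosin (2.36), while Cyp17a1, another steroid-synthesis enzyme, was at -0.34. The brightest Leydig and peritubular marker, which weighs most in that sum, was Acta2, at a mean log2 signal of 17.62 in -F+S and 15.63 in control samples. All tested markers of both lists were well above background in some sample, which the filter requires of any tested probe. The ratio of Gdnf, 0.88, lay inside the wide range of the Sertoli markers, -0.094 to 3.42, and below their median of 2.09. It also lay inside the range of the fibroblast markers, 0.074 to 2.50. The part of any of these cells in the rise of Gdnf was not tested.

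Fibroblast and macrophage markers differed as well, while Schwann and neural markers were called at about the shares of all genes. Of 10 fibroblast markers, 9 were higher and 0 lower (median 1.43), among them Fbn1, the protein of microfibrils (2.50), and Lum, a matrix proteoglycan (1.90). Their summed signal was between 1343418 and 1447444 in -F+S samples, against between 515263 and 593786 in control samples. All 8 macrophage markers were lower (median -1.03), including the surface receptor gene Adgre1 (-2.21) and the Fc receptor subunit gene Fcer1g (-1.23). The macrophage sum was between 51307 and 64108 in -F+S samples, against between 122899 and 146636 in control samples. Of 8 Schwann and neural markers tested, the cells in which Gfra3 is best known, 3 were higher and 3 lower. The shares of all genes were 37.5% and 30.9%. The median of these markers was 0.087, and -0.043 with the scanner LogRatio. Tubb3, a neuronal tubulin, was at 1.39, S100b, a calcium-binding protein of glia, at 0.65 and Sox10, the transcription factor of Schwann cells, at -0.48. Gfap, the intermediate filament of glia, was in no sample well above background, and the summed signal of the tested ones was between 23830 and 27360 in -F+S samples, against between 18496 and 19304 in control samples. The brightest of them in -F+S samples was Tubb3, at a mean log2 signal of 13.31, against 11.92 in control samples. The part of these cells in the ratios of the family was not tested.

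**Figure D4:**
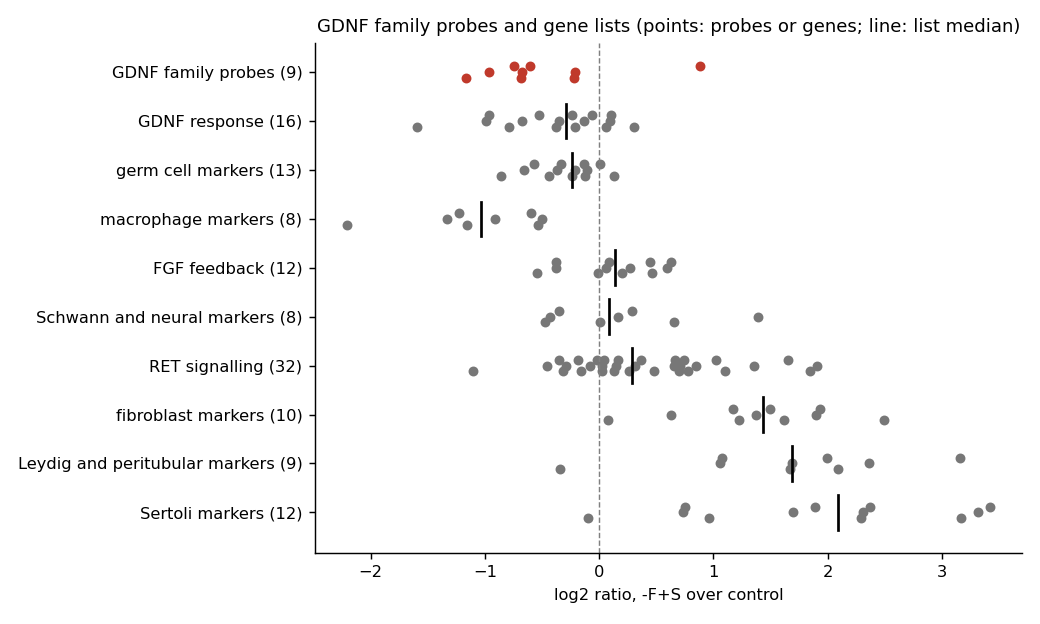
Log2 ratio of -F+S over control (horizontal axis) of the 9 tested GDNF family probes (red) and of the tested genes of 9 lists (grey, brightest probe per gene, number in brackets), with the median of each list as a black line. Gdnf has a positive ratio and the other family probes have negative ones. The medians of the Sertoli, Leydig and peritubular, fibroblast, RET signalling, FGF feedback, and Schwann and neural lists are also positive.

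The list of RET signalling holds other surface proteins that bind RET or its ligands, and the adaptors and kinases that act downstream of it. Of 32 tested genes of RET signalling, 17 rose and 5 fell, and the median log2 ratio was 0.28 (0.091 with the scanner LogRatio and 0.14 with median-centred processed signals), beside 37.5% higher and 30.9% lower of all genes. Gas1, a surface protein related to the GFRα co-receptors that binds RET, was at 1.91 (SE 0.074), and Ncam1, a cell adhesion molecule that can bind GDNF without RET, at 1.85 (SE 0.073). The adaptor gene Grb10 was at 1.65 and Pik3r1, the regulatory subunit of PI3 kinase, at 1.35. Dok2, an adaptor known from blood cells, was at -1.10 (limma adjusted p = 2.68e-06). Summed signals of the list were between 371573 and 388194 in -F+S samples, against between 234464 and 247635 in control samples. Pspn, the gene of the ligand persephin, was on the array and did not pass the filter.

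Genes known to respond to GDNF were mostly lower. Of 16 tested, 10 fell and 1 rose, and the median log2 ratio was -0.29 (-0.49 with the scanner LogRatio). Of all genes, 30.9% were called lower and 37.5% higher. The transcription factor genes T, Lhx1, Eomes and Pou3f1 were at -1.60, -0.96, -0.99 and -0.79, and the repressor gene Bhlhe40 was at 0.31. This list was already known to fall in these samples and is not independent evidence. Of its tested genes, Id4 and Nanos2 are also among the germ cell markers, and Etv5 is also among the FGF genes that follow. The part of GDNF signalling, of FGF signalling or of germ cell RNA in these falls was not tested. Feedback and target genes of FGF signalling went both ways: of 12, 5 rose and 3 fell, and the median was 0.14 (0.015 with the scanner LogRatio). These FGF counts lie near the shares of all genes, 37.5% higher and 30.9% lower. Spred1 and Dusp4, inhibitors of the ERK pathway, were at 0.44 and 0.60, and the inhibitors Il17rd and Spred2 at -0.54 and -0.37. With the scanner LogRatio, 2 instead of 5 of these genes were called higher.

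Among 15602 name-matched genes, those whose 4 ratios were nearest to Ret were Atp5a1, Dclre1b, Zfp583, 4933401B06Rik and Dnaja3, with a root mean square difference between 0.022 and 0.049 log2 units over 4 arrays. Nearest to A_52_P311022, the Gfra1 probe of the fit with 1 probe per gene and not called there, were Ankrd61, Ebpl, Kantr, Alkbh6 and Plk5, with differences between 0.026 and 0.050. With 4 values a gene, close matches of this kind are a description.

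The direction of every tested GDNF family probe was the same under each alternative that was run, from -1.37 to -0.74 for Nrtn and from 0.74 to 1.17 for Gdnf. The calls of Gdnf, Nrtn, Ret, Gfra4 and Gfra1 A_52_P398998 held under all of them. Gfra3 and Gfra1 A_52_P311022 were called lower with the scanner LogRatio, at -0.42 each. Relative to the median of all tested probes they were then both at -0.31, against -0.25 and -0.26 in the values above.

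**Figure D5:**
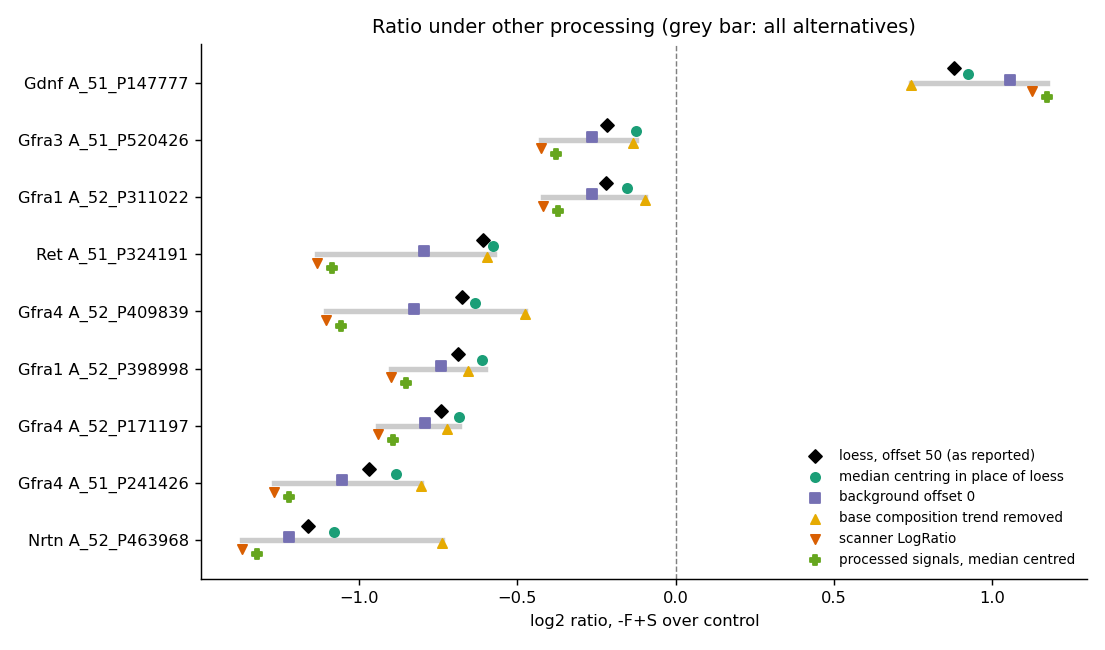
Log2 ratio of -F+S over control (horizontal axis) of the 9 tested GDNF family probes as reported (black diamonds) and under 5 other ways of processing (coloured), with the range over all alternatives as a grey bar. No bar crosses 0; the bars of Ret and Gfra4 A_52_P409839 reach to -1.13 and -1.10 with the scanner LogRatio.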

How the data were processed

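Spot and background intensity values were deposited by the authors for 4 two-colour arrays, and the file headers name Agilent Feature Extraction 10.5.1.1. All arrays lay on 1 slide and in 1 scan. The processed intensity was background-subtracted and dye-normalized by that software, and LogRatio is log10 of red over green, per the file headers. All scanner LogRatio values given here were converted to log2 of green over red, which is -F+S over control. The deposited series matrix holds log2 values, which equalled log2 of green over red processed signal for 100% of probes within 0.001, not centred (column medians -0.26, 0.011, 0.11 and -0.058).

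Here the mean signals were background-corrected with normexp (offset 50) and normalized by loess within arrays, giving control spots no weight. Outlier spots (141 to 171 an array) were left out, and 0 of them belonged to the GDNF family. Spots of a probe were averaged. limma 3.58.1 (lmFit, eBayes; R 4.3.3) tested the ratio of -F+S over control against 0, two-sided. The number of arrays limits the precision; the median SD of a probe's ratio was 0.15. Levels per channel follow Aquantile scaling. Gene names were updated through RefSeq (GRCm38.p6): 25097 probes matched by accession, 7973 by symbol or synonym, and 8104 kept the file's name. The procedure was tested on simulated data.

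Members, lists, tests and alternatives were chosen with earlier results of these data known. Of each list, the 4 called genes with the smallest adjusted p were named (2 for marker lists), plus the first called gene of opposite direction. For Ret and Gfra1, the 5 nearest name-matched genes were named. The result of 1 marker gene is not reported here.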

Additional observations from a re-analysis of the deposited data

Results flagged for a closer look

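In 55 groups of 4 values, 7 had 1 value far from the others by Dixon's criterion, of which chance flags about 1 in 20 groups. For Ret, the ratio of array 4 was -0.39, while the other arrays lay between -0.71 and -0.66. For Gfra4 A_51_P241426, the -F+S signal of array 1 was 9.42, while the other -F+S samples lay between 9.75 and 9.78, and its ratio on array 1, -1.01, lay among those of the other arrays. The other 5 were ratios of listed genes. Gas1 was at 1.72 on array 1, against 1.96 to 1.98 on the others. Grb10 was at 1.40 on array 3, against 1.70 to 1.77. Uchl1 was at -0.89 on array 2, against -0.60 to -0.55. Cldn11 was at 3.20 on array 4, against 3.47 to 3.51. Myh11 was at 2.63 on array 2, against 2.24 to 2.30. These 7 values fell on all 4 arrays.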

How the results depend on the processing

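All 9 tested GDNF family probes kept their direction under every alternative run. Gfra1 A_52_P311022 and Gfra3 became called lower with the scanner LogRatio (-0.42 and -0.42, limma adjusted p = 0.00637 and 0.00528), the deposited series matrix (-0.42 and -0.42), median-centred processed signals (-0.37 and -0.38) and a background offset of 0 (-0.27 and -0.26). Leaving out each array in turn gave -0.30 to -0.14 for Gfra1 A_52_P311022 and -0.29 to -0.13 for Gfra3, and each was called without array 1. Gfra3 was also called in the fit with 1 probe per gene (-0.22, limma adjusted p = 0.0499). They were smaller, and not called, with the base composition trend removed (-0.096 and -0.14, limma adjusted p = 0.353 and 0.162) or when arrays were median-centred instead of loess-normalized (-0.16 and -0.13, limma adjusted p = 0.452 and 0.523). The number of FGF feedback genes called higher was 2 with the scanner LogRatio and 3 with median-centred processed signals, against 5. With each of these, Gfra4 A_51_P241426 minus A_52_P409839 was -0.16, A_51_P241426 minus A_52_P171197 was -0.33, and A_52_P171197 minus A_52_P409839 turned to 0.17. The median of the Schwann and neural markers turned to -0.043 with the scanner LogRatio and to -0.023 without the filter on dim probes. The cause of these differences was not tested. Over all probes, median centring in place of loess called 8472 higher and 4885 lower, against 10343 and 8063; by gene it called 3572 lower, against 5696. Signal over background limits Artn to a bound and leaves Gfra2 without a fold. The test of the ratios against 0 is itself a paired analysis, because the ratio of each array pairs its 2 samples. The labels give 1 group of replicate numbers.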
